A study of Arabidopsis thaliana with 12 samples.

Results

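ORA47 (AT1G74930), the neighbouring genes AT4G27652 and AT4G27654, and STZ (also ZAT10, AT1G27730) are each represented here by 1 probe set. They are 4 of the 13356 Arabidopsis genes that the annotation available here pairs with a probe set of their own. Only genes so paired are called measured below, and 8730 probe sets are not listed in that annotation. The 4 genes were chosen from their values in these same arrays. The questions were which stood high in unstressed wild type, and whether they moved in opposite directions in the 2 genotypes. Their levels and changes are therefore given as descriptions, with no test. The groups were siz1-3 plants after 2 h of dehydration, siz1-3 plants under control conditions, wild-type Col-0 plants after 2 h of dehydration and Col-0 plants under control conditions, with 3 ATH1 arrays each. The arrays carried biotin-labelled RNA amplified from total RNA. All plants were 3 weeks old by their labels, the age of Col-0 control replicate 1 being entered as 21 days. SIZ1 is the E3 ligase that directs SUMO, a small ubiquitin-like modifier, onto many nuclear proteins, and siz1-3 is a single mutant line. The labels name neither the tissue nor whether the 3 arrays of a group came from separate plants or cultures, so the p-values below measure the spread between arrays, which may be technical.

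Stress-responsive transcription factor genes of this kind are known to be switched on within minutes of handling, touch, wounding, cold or drying, and their transcripts are short-lived. ORA47 encodes an AP2/ERF factor of the DREB subfamily that activates genes of jasmonate synthesis, jasmonate being the hormone of wounding and herbivore defence. STZ encodes a C2H2 zinc finger protein with an EAR repression motif, which lowers the transcription of its targets and is induced by salt, cold, drought and wounding. No role is given here for the products of AT4G27652 and AT4G27654, which lie side by side on chromosome 4 in the TAIR10.1 annotation.

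Array medians lay between 65.5 and 88.2 signal units, and arrays of the same group correlated at 0.980 or more. Of the 2 SIZ1 probe sets, the brighter was lower in siz1-3, at 81.5 to 101 after dehydration and 160 to 177 under control conditions, against 360 to 465 and 286 to 451 in Col-0. The dimmer went the other way, at 60.3 to 111 over the 6 siz1-3 arrays and 2.85 to 34.2 over the 6 Col-0 arrays. The summed signal of the measured green leaf markers (2 of 5 listed, RCA and LHCB4.1) was high on all 12 arrays and differed by group. It was 11612 to 12582 in siz1-3 after dehydration and 17415 to 19900 under control conditions. In Col-0 the green leaf sum was 15761 to 16498 after dehydration and 20650 to 21584 under control conditions. The sum of the measured guard cell lineage markers (3 of 5: FAMA, MUTE and AT1G22690) was 116 to 167 in siz1-3 after dehydration and 677 to 740 under control conditions. In Col-0 it was 171 to 243 after dehydration and 909 to 1046 under control conditions. Most of the guard cell control sums came from AT1G22690, with means of 569.9 in siz1-3 and 804 in Col-0. MUTE was near background in all groups, with means of 2.74 to 12.8. The root markers (3 of 4) summed to 474 to 515, 649 to 749, 718 to 1145 and 915 to 992 in the same order, nearly all of it from BGLU23, with EXPA7 and EXPA18 near background. The ratio of the 3' to the 5' actin control probe sets, a sign of RNA integrity or of labelling length, was 15.01 to 18.37 in dehydrated siz1-3 and 8.29 to 19.0 in control siz1-3, and 12.9 to 20.2 in dehydrated Col-0 and 8.89 to 15.5 in control Col-0. Its median was lowest in Col-0 control, at 10.9 against 15.7 to 17.7 in the other groups, and the ranges overlap. The green leaf and guard cell sums moved with treatment and genotype. The root sums moved with genotype, while those of dehydrated and control Col-0 overlapped. The part of these sums and of the actin ratio in the results below was not tested, and in bulk RNA fewer cells of a type and less RNA per cell cannot be told apart.

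ORA47 was high in unstressed wild type and low everywhere else. In siz1-3 the 3 dehydrated arrays gave signals of 275.5, 272 and 221, and the 3 control arrays gave 99.3, 111 and 78.8. In Col-0 the dehydrated arrays gave 185, 182 and 223, and the control arrays gave 2196, 1323 and 1797. The lowest Col-0 control array thus stood far above the highest of the other 9 arrays. The mean was 256.1 ± 30.4 in dehydrated siz1-3 and 96.3 ± 16.3 in control siz1-3, and 197 ± 22.9 in dehydrated Col-0 and 1772 ± 437 in control Col-0 (SD, n = 3 each). In order of level, Col-0 control came first, then dehydrated siz1-3 and dehydrated Col-0, whose arrays overlapped, and then siz1-3 control, below all of these.

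Dehydration therefore went with opposite movements of ORA47 in the 2 genotypes. In siz1-3 the dehydrated arrays averaged 2.66 times the control arrays, a log2 fold change of 1.28 ± 0.18 (SE). In Col-0 the log2 fold change was -3.05 ± 0.18, so the control arrays averaged 9.01 times the dehydrated ones. Neither pair of groups overlapped. Under control conditions siz1-3 stood below Col-0, with a log2 difference of -3.97 ± 0.18, Col-0 averaging 18.4 times siz1-3. After dehydration the difference was 0.35 ± 0.18, with overlapping arrays. The change in siz1-3 minus the change in Col-0, called the interaction from here on, was 4.33 ± 0.26.

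Among all 22746 probe sets tested, that interaction value of ORA47 was the highest and its siz1-3 minus Col-0 difference under control conditions the lowest. With a pseudocount of 1 in place of 16 it ranked 7 for the interaction and 5 for the genotype difference. Without Col-0 control replicate 2, or without Col-0 dehydration replicate 2, it ranked 2 for the interaction. The Col-0 response, the genotype difference under control conditions and the interaction all use the same 3 Col-0 control arrays, so these values are not independent of each other.

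**Figure D1:**
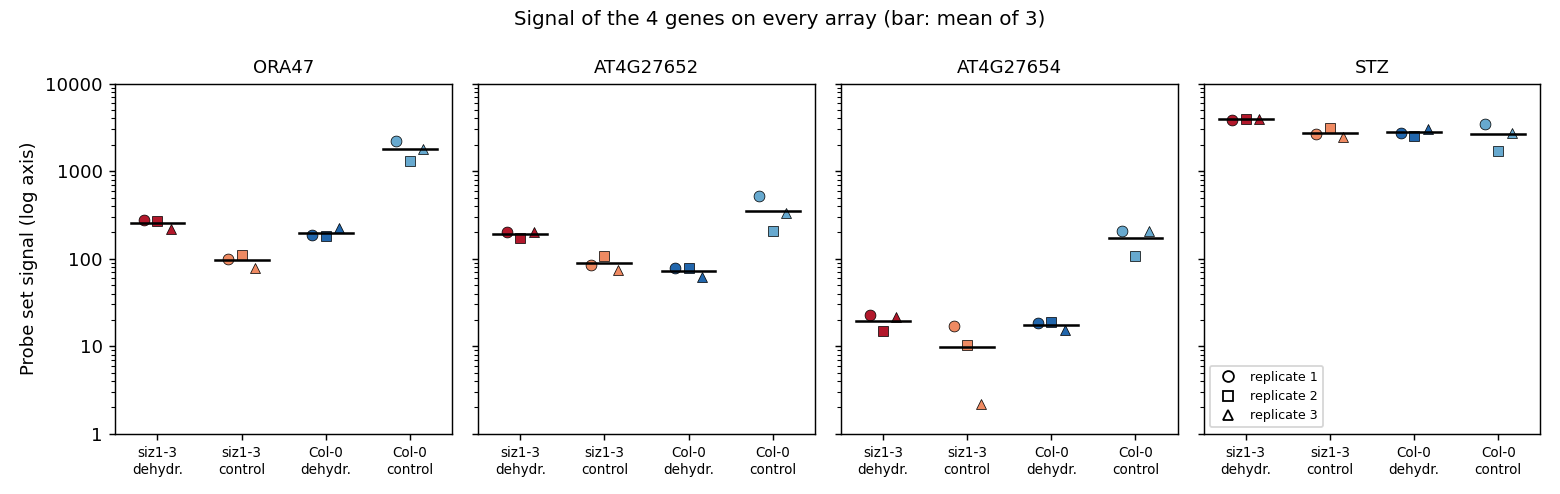
Signal of ORA47, AT4G27652, AT4G27654 and STZ (vertical log axis, signal units) on each of the 12 arrays, by group from dehydrated siz1-3 on the left to control Col-0 on the right; circles, squares and triangles are replicates 1, 2 and 3 and bars are means of 3. The Col-0 control arrays stand above the other 9 arrays for the first 3 genes (1323 to 2196 for ORA47), and for STZ the dehydrated siz1-3 arrays (3872 to 3986) stand above the other 9.

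AT4G27652 shared the shape of the ORA47 pattern, with a higher level in dehydrated siz1-3. Dehydrated siz1-3 arrays gave 199.7, 172 and 200.1, and control siz1-3 arrays gave 85.3, 108.5 and 73.8. Dehydrated Col-0 arrays gave 78.8, 77.7 and 61.2, and control Col-0 arrays gave 519, 207 and 329. Col-0 control was again the highest group, although its replicate 2 lay only just above the highest dehydrated siz1-3 array. Dehydrated siz1-3 came next, and siz1-3 control and dehydrated Col-0 overlapped at the low end. The log2 fold change on dehydration was 0.98 ± 0.25 in siz1-3, a ratio of means of 2.14, and -1.97 ± 0.25 in Col-0, where control averaged 4.85 times dehydrated. Neither pair of groups overlapped, and the interaction was 2.95 ± 0.35. Under control conditions siz1-3 was below Col-0, with a log2 difference of -1.73 ± 0.25. After dehydration it was above Col-0 by 1.23 ± 0.25, with 2.63 times the mean signal and no overlap, where ORA47 showed only a small difference between overlapping groups.

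AT4G27654 stood clear of background in Col-0 control arrays and not in the other groups. Dehydrated siz1-3 arrays gave 22.53, 15.04 and 21.38, and control siz1-3 arrays gave 17.1, 10.3 and 2.22. Dehydrated Col-0 arrays gave 18.2, 19.1 and 15.5, and control Col-0 arrays gave 208, 106 and 208. The first 3 of these groups overlap and sit near the pseudocount of 16, where a signal cannot be told from background without detection calls, and no such calls were used here. Folds against those groups are therefore not given as ratios, and the log2 values depend on the pseudocount. The log2 fold change on dehydration was -2.45 ± 0.25 in Col-0. In siz1-3 it was 0.50 ± 0.25 with overlapping arrays, and it ran between 0.00 with signals floored at 32 and 1.23 with a pseudocount of 1. Its interaction of 2.95 ± 0.35 likewise ran between 1.69 with a pseudocount of 64 and 4.40 with a pseudocount of 1, and its genotype difference under control conditions (-2.87) between -1.66 and -4.27. The fall on dehydration in Col-0 ran between -1.51 and -3.17 with the same pseudocounts. A change in opposite directions was therefore measured for AT4G27652 and could not be read for AT4G27654.

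The genes around this pair showed several patterns. Genes other than the 4 were tested with limma, and passed, or were called, where the p adjusted over all probe sets was under 0.05. AT4G27657, next to AT4G27654 on the side away from AT4G27652, gave 353, 371 and 374 in dehydrated siz1-3 and 42.7, 56.5 and 36.5 in control siz1-3. In dehydrated Col-0 it gave 294, 299.8 and 204, and in control Col-0 344, 85.7 and 217. It rose on dehydration in siz1-3 by 2.65 ± 0.34 on the log2 scale (adjusted p = 3.52e-05) and was lower in siz1-3 than in Col-0 under control conditions (log2 difference -1.75 ± 0.34, adjusted p = 0.00322). In Col-0 its change of 0.45 ± 0.34 did not pass the test (adjusted p = 0.358), and it passed when Col-0 control replicate 1 was left out (0.86, adjusted p = 0.0423). The interaction passed at 2.21 ± 0.49 (adjusted p = 0.0155). So AT4G27657 shared with AT4G27652 the low level in unstressed siz1-3 and the rise there, while no fall was measured in Col-0.

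PEL1 (AT4G27650), a homologue of the ribosome rescue factor pelota on the other side of the pair, varied little by comparison. Its means were 352 ± 26.4 in dehydrated siz1-3, 256 ± 12.1 in control siz1-3, 314 ± 18.1 in dehydrated Col-0 and 328 ± 51.7 in control Col-0 (SD, n = 3 each). It rose in siz1-3 by 0.43 ± 0.12 (adjusted p = 0.0117, and 0.0528 without siz1-3 dehydration replicate 2), while its interaction of 0.48 did not pass (adjusted p = 0.117). AT4G27660, beyond AT4G27657, changed by -0.65 in siz1-3 (adjusted p = 0.00393), a call lost when the arrays were scaled to equal quantiles (adjusted p = 0.102) or equal medians (adjusted p = 0.125). For AT4G27640 neither the siz1-3 change of -0.37 (adjusted p = 0.111) nor the Col-0 change of -0.18 (adjusted p = 0.495) passed.

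**Figure D2:**
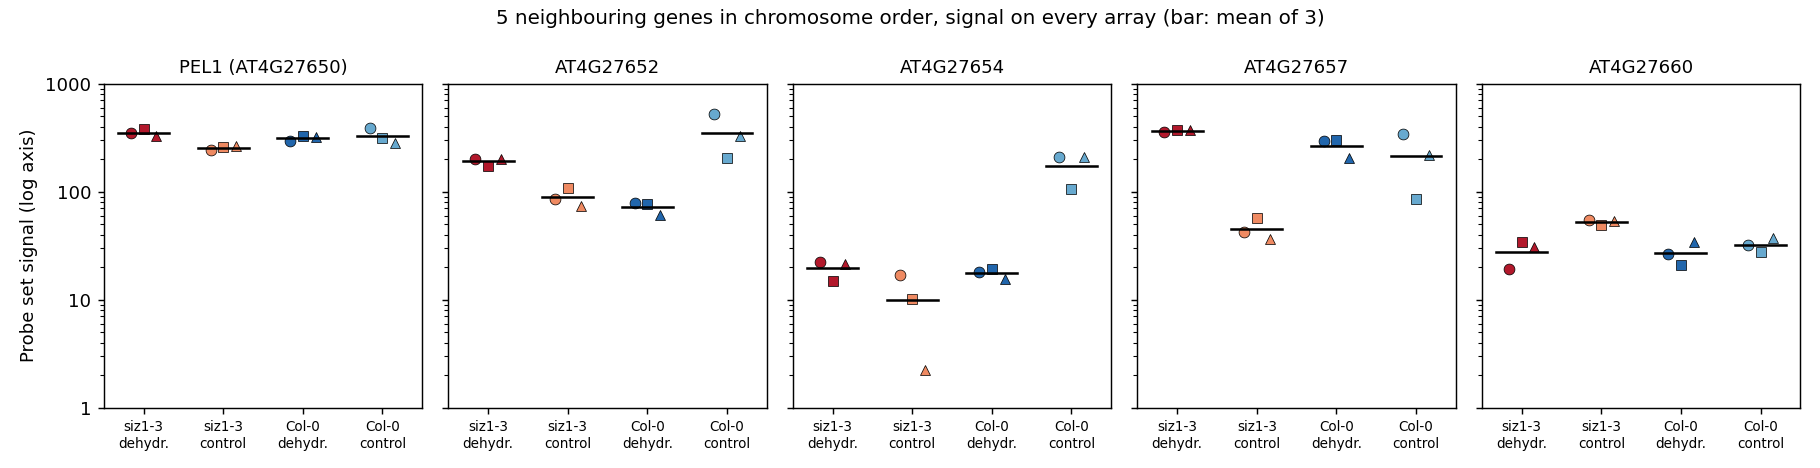
Signal on each array (vertical log axis, signal units) of 5 neighbouring genes in their TAIR10.1 order, by group from dehydrated siz1-3 on the left to control Col-0 on the right; circles, squares and triangles are replicates 1, 2 and 3 and bars are means of 3. AT4G27652 and AT4G27654 are highest in Col-0 control, AT4G27657 is lowest in siz1-3 control (36.5 to 56.5), and the PEL1 means lie between 256 and 352.

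STZ gave high signals in all 4 groups and was highest in dehydrated siz1-3. Dehydrated siz1-3 arrays gave 3872, 3981 and 3986, and control siz1-3 arrays gave 2634, 3087 and 2437. Dehydrated Col-0 arrays gave 2754, 2554 and 3004, and control Col-0 arrays gave 3444, 1720 and 2719. Dehydrated siz1-3 stood above all other 9 arrays, and the other 3 groups overlapped. In siz1-3 the log2 fold change was 0.54 ± 0.20, a ratio of means of 1.45, and it was 0.89 when arrays were scaled to equal medians. In Col-0 it was 0.13 ± 0.20, and its sign rested on single arrays, with -0.15 without Col-0 control replicate 2 and 0.35 without Col-0 control replicate 1. Unstressed siz1-3 and unstressed Col-0 differed by 0.10 ± 0.20, which became -0.18 without Col-0 control replicate 2 and 0.32 without Col-0 control replicate 1. After dehydration siz1-3 was above Col-0 by 0.51 ± 0.20. The interaction was 0.41 ± 0.29, between 0.19 without Col-0 control replicate 1 and 0.69 without Col-0 control replicate 2. For STZ, then, the Col-0 control arrays did not stand above the rest, and no opposite change was seen beyond the spread of the arrays.

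**Figure D3:**
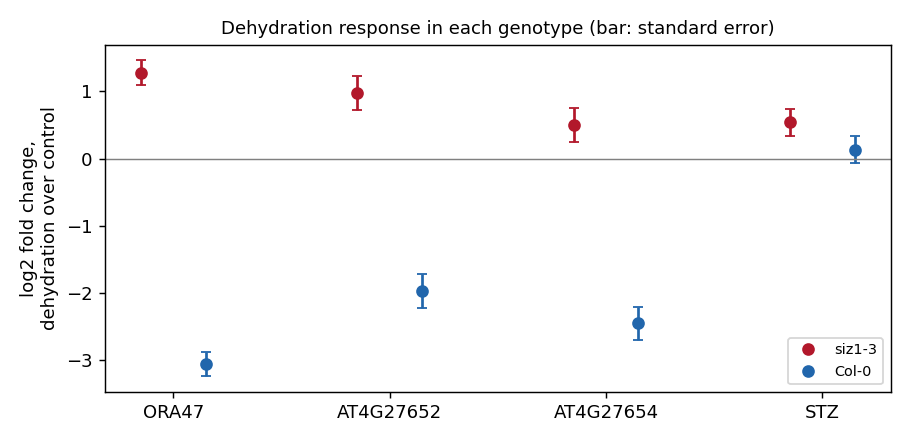
Log2 fold change of dehydration over control (vertical axis) for each of the 4 genes in siz1-3 (red, left of each pair) and Col-0 (blue, right of each pair); bars are standard errors from the fit over 12 arrays. ORA47 moved up by 1.28 in siz1-3 and stood at -3.05 in Col-0, and STZ stood at 0.54 in siz1-3 and 0.13 in Col-0.

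Counted over the 4 genes, 3 had all Col-0 control arrays above the other 9 arrays, an arrangement held by 9.11% of all probe sets. ORA47 and AT4G27652, 2 of the 4, had dehydrated siz1-3 arrays above control siz1-3 arrays and dehydrated Col-0 arrays below control Col-0 arrays, without overlap, as did 0.51% of all probe sets. Both counts follow from how the genes were chosen, and nothing is read from them.

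The 4 genes also differed in how much the Col-0 control arrays varied among themselves. On the log2 scale the SD of the 3 Col-0 control arrays was 0.36 for ORA47, 0.63 for AT4G27652, 0.51 for AT4G27654 and 0.51 for STZ, where the median over all probe sets was 0.17. Between 86.4% and 98.6% of all probe sets had a smaller SD in that group. In dehydrated siz1-3 the SDs were 0.17, 0.12, 0.17 and 0.02 against a median of 0.14, and in dehydrated Col-0 they were 0.15, 0.17, 0.08 and 0.12 against 0.19. In control siz1-3 they were 0.21, 0.24, 0.43 and 0.17 against 0.18. All 4 genes were highest in Col-0 control replicate 1 and lowest in replicate 2, an order found in 15.4% of all probe sets and looked at after the values had been seen. Replicate 1 is the array whose age was entered as 21 days, the same age as the 3 weeks of the other arrays. What set this order was not tested.

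Over the 12 arrays ORA47 varied most closely with AT4G27654 (Pearson's r = 0.971) and with AT4G27652 (0.849), and the adjacent pair with each other (0.834). STZ correlated with them at -0.124, -0.175 and 0.256. These values rest on 4 groups of arrays and are given as descriptions only.

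Related genes were taken from 5 lists of stress and jasmonate genes, of which the annotation available here pairs 25 of 135 with a probe set of their own. The lists were drawn up with earlier results of these arrays known. In siz1-3, 13 of the 25 rose on dehydration and 5 fell, with a median log2 fold change of 0.60 against -0.16 over all probe sets, of which 15.3% were called higher and 31.8% lower. In Col-0, 4 rose (13.5% of all probe sets) and 11 fell (23.5%), with a median of -0.29 against -0.09. The interaction passed for 8, all with a higher change in siz1-3 than in Col-0 (3.84% of all probe sets). It passed for 0 with a lower change in siz1-3 (4.96%), and its median was 0.74 against -0.08. The first of these counts was 5 without siz1-3 dehydration replicate 2 and 4 with a pseudocount of 1. Under control conditions 5 of the 25 were higher in siz1-3 than in Col-0 (8.9% of all probe sets) and 7 lower (8.49%). After dehydration 11 were higher (12.4%) and 1 lower (19.1%), and that 1, JMT, was not called with a pseudocount of 1.

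AT1G19210, OPCL1 and PUB22 were called higher in siz1-3 and lower in Col-0 after dehydration, the directions described for ORA47 without a test. They are 3 of the 25, against 0.229% of all probe sets. The lists were drawn up with earlier results known, so nothing is read from this count. The count was 2 with subtracted array medians or a floor of 32, and 1 of the 18 genes kept among the brighter 60% of probe sets, OPCL1. Without Col-0 dehydration replicate 3 it was 4, with AT1G22810 added. AT1G19210, listed here among DREB and ERF factors, gave 52.1, 47.6 and 57.0 in dehydrated siz1-3 and 19.6, 11.6 and 26.7 in control siz1-3. In Col-0 it gave 22.0, 21.5 and 19.7 after dehydration and 127, 47.5 and 99.0 under control conditions. It rose in siz1-3 by 0.97 ± 0.25 (adjusted p = 0.00567, and 0.0968 with signals floored at 32) and changed by -1.45 ± 0.25 in Col-0 (adjusted p = 0.000439). Its interaction was 2.42 ± 0.35 (adjusted p = 0.00127). After dehydration it was higher in siz1-3 than in Col-0 by 0.88 ± 0.25 (adjusted p = 0.0165), a call lost without siz1-3 dehydration replicate 3 (adjusted p = 0.0554) and with the floor of 32 (adjusted p = 0.127).

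PUB22 encodes a U-box ubiquitin ligase that dampens immune signalling. It gave 59.3, 46.6 and 54.6 in dehydrated siz1-3 and 26.5, 32.7 and 26.3 in control siz1-3, and 12.8, 15.1 and 10.7 in dehydrated Col-0 and 58.5, 42.0 and 69.3 in control Col-0. It rose in siz1-3 by 0.64 ± 0.15 (adjusted p = 0.00297) and changed by -1.32 ± 0.15 in Col-0 (adjusted p = 1.36e-05). Its interaction was 1.96 ± 0.21 (adjusted p = 0.000215), and no alternative that was run changed a call of PUB22. OPCL1 encodes a CoA ligase that acts on jasmonate precursors. It gave 1409, 1377 and 1255 in dehydrated siz1-3 and 827.5, 1027 and 584 in control siz1-3, and 768.5, 689.9 and 517 in dehydrated Col-0 and 1069.5, 1022 and 1144 in control Col-0. It rose in siz1-3 by 0.75 ± 0.19 (adjusted p = 0.00569) and changed by -0.72 ± 0.19 in Col-0 (adjusted p = 0.00999, and 0.0597 with arrays scaled to equal medians). Its interaction was 1.47 ± 0.27 (adjusted p = 0.00581).

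**Figure D4:**
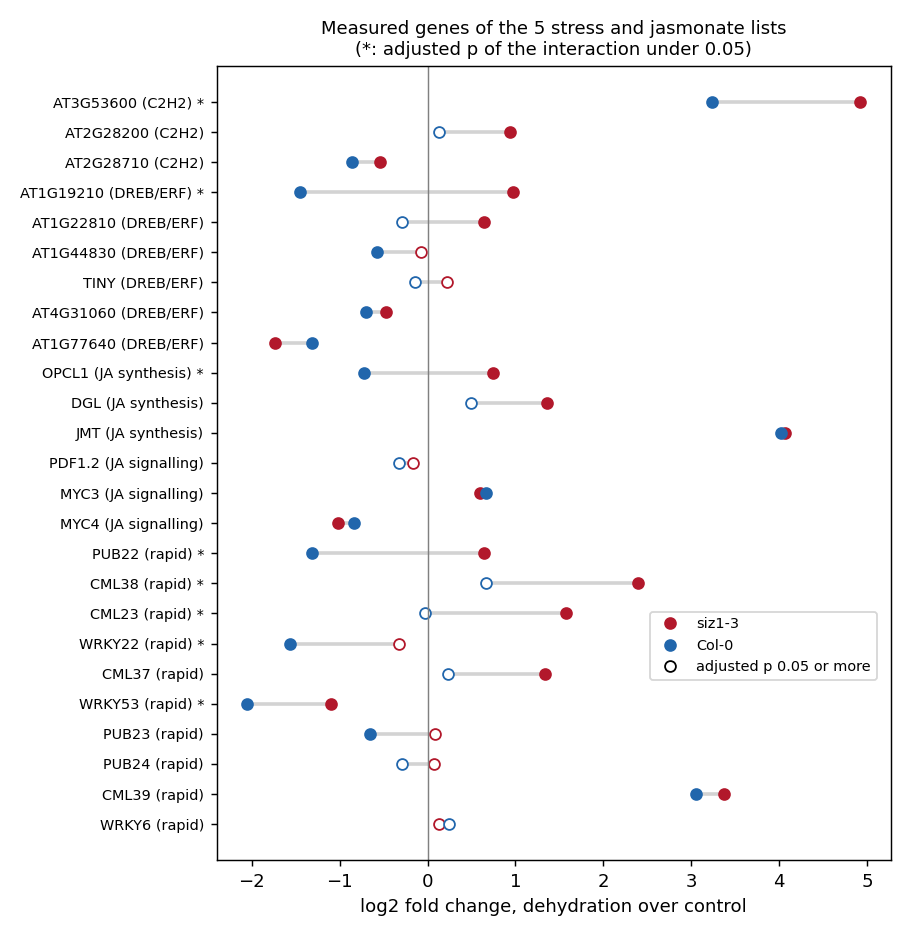
Log2 fold change of dehydration over control (horizontal axis) of the 25 measured genes of the 5 stress and jasmonate lists, in siz1-3 (red) and Col-0 (blue); filled points passed the test, open points did not, a grey line joins the 2 genotypes and an asterisk marks an interaction that passed. AT1G19210, OPCL1 and PUB22 have filled points on both sides of 0.

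The other measured jasmonate genes showed patterns unlike that of ORA47. JMT, whose product methylates jasmonate, gave 431 ± 12.5 in dehydrated siz1-3 and 12.5 ± 12.8 in control siz1-3, and 1009 ± 125 in dehydrated Col-0 and 50.1 ± 23.3 in control Col-0 (SD, n = 3 each). It rose in both genotypes, by 4.07 ± 0.31 in siz1-3 (adjusted p = 3.06e-07) and 4.02 ± 0.31 in Col-0 (adjusted p = 4.23e-07), with an interaction of 0.05 (adjusted p = 0.969). DGL, a plastid acylhydrolase, rose in siz1-3 by 1.36 (adjusted p = 0.0132, and 0.0799 with the floor of 32) from signals near background. In Col-0 its change of 0.49 did not pass (adjusted p = 0.386), and without Col-0 control replicate 2 it was 0.97, at the threshold. MYC3 and MYC4, bHLH factors of jasmonate signalling, moved alike in both genotypes, MYC3 up by 0.60 in siz1-3 (adjusted p = 0.00465) and 0.67 in Col-0 (adjusted p = 0.0029), and MYC4 down, at -1.02 (adjusted p = 9.3e-05) and -0.84 (adjusted p = 0.000618). PDF1.2, a defensin used as a jasmonate marker, changed by -0.16 in siz1-3 (adjusted p = 0.865) and -0.33 in Col-0 (adjusted p = 0.739). Without Col-0 dehydration replicate 3, which read 1246, the Col-0 change of PDF1.2 was -1.30 (adjusted p = 0.0105).

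Of the other 5 measured DREB and ERF factors, AT1G77640 fell in both genotypes, at -1.74 in siz1-3 (adjusted p = 0.000133) and -1.31 in Col-0 (adjusted p = 0.00166). AT4G31060 changed by -0.47 in siz1-3 (adjusted p = 0.0309), a call lost without siz1-3 control replicate 1 or 2 or siz1-3 dehydration replicate 2 or 3 (adjusted p = 0.0912 to 0.109). With arrays scaled to equal quantiles that change was -0.13 (adjusted p = 0.636), and with equal medians -0.12 (adjusted p = 0.557). In Col-0 AT4G31060 changed by -0.70 (adjusted p = 0.00413). AT1G22810 changed by 0.64 in siz1-3 (adjusted p = 0.0154) at signals of 23.1 or less, which a floor of 32 turns into 0.00 (adjusted p = 1), and the call was also lost without siz1-3 dehydration replicate 1 or siz1-3 control replicate 2 or 3 (adjusted p = 0.053 to 0.0569). In Col-0 its change of -0.29 (adjusted p = 0.282) passed without Col-0 dehydration replicate 3 (adjusted p = 0.0271). AT1G44830 stood at -0.07 in siz1-3 (adjusted p = 0.799) and at -0.58 in Col-0 (adjusted p = 0.0314), and lost the Col-0 call without Col-0 dehydration replicate 1 or Col-0 control replicate 2 or 3 (adjusted p = 0.0669 to 0.122) and with equal quantiles (-0.37, adjusted p = 0.156) or medians (-0.36, adjusted p = 0.16). TINY, a DREB factor, passed in none of the 5 comparisons, with 0.22 in siz1-3 (adjusted p = 0.293) and -0.14 in Col-0 (adjusted p = 0.558). Its siz1-3 change passed at 0.55 with arrays scaled to equal quantiles (adjusted p = 0.0103) and at 0.57 with equal medians (adjusted p = 0.0104).

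The 3 measured relatives listed with STZ among C2H2 zinc finger genes each behaved differently. AT3G53600 reached 576 ± 76.8 in dehydrated siz1-3 and 176 ± 12.9 in dehydrated Col-0, and was near background in both control groups, at 3.75 ± 4.598 in siz1-3 and 4.55 ± 4.595 in Col-0 (SD, n = 3 each). It rose by 4.92 ± 0.19 in siz1-3 (adjusted p = 1.25e-09) and by 3.24 ± 0.19 in Col-0 (adjusted p = 3.97e-08). Its interaction of 1.68 ± 0.26 passed (adjusted p = 0.00232), but not with a pseudocount of 1 (adjusted p = 0.303). AT2G28200 rose in siz1-3 by 0.94 (adjusted p = 0.000539), and was lower in siz1-3 than in Col-0 under control conditions (log2 difference -0.81, adjusted p = 0.00507). Its interaction of 0.81 did not pass (adjusted p = 0.058), and it passed without siz1-3 control replicate 2 (0.94, adjusted p = 0.0389). It also passed with arrays scaled to equal quantiles (0.90, adjusted p = 0.0335) or medians (0.94, adjusted p = 0.031). A pseudocount of 64, a floor of 32, the brighter 60% of probe sets and replicate number as a block gave adjusted p between 0.022 and 0.045. AT2G28710 changed by -0.54 in siz1-3 (adjusted p = 0.00621), a call lost with arrays scaled to equal quantiles (adjusted p = 0.284) or medians (adjusted p = 0.266). In Col-0 its change was -0.86 (adjusted p = 0.000318).

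Among genes of rapid touch, wound and calcium responses (10 of 43 measured), 5 rose (15.3% of all probe sets) and 1 fell (31.8%) in siz1-3. In Col-0, 1 rose (13.5% of all probe sets) and 4 fell (23.5%). After dehydration 8 of the 10 were higher in siz1-3 than in Col-0 (12.4% of all probe sets), and 0 were lower (19.1%). Under control conditions 5 of the 10 were higher in siz1-3 (8.9% of all probe sets) and 2 lower (8.49%). The calmodulin-like calcium sensor CML38 gave 729 ± 85.7 in dehydrated siz1-3 and 131 ± 49.0 in control siz1-3, and 355 ± 42.2 in dehydrated Col-0 and 225.5 ± 69.6 in control Col-0 (SD, n = 3 each). It rose in siz1-3 by 2.40 ± 0.26 (adjusted p = 7.65e-06). In Col-0 its change of 0.66 did not pass (adjusted p = 0.0669), and it passed without siz1-3 control replicate 1 (adjusted p = 0.0299) or 2 (adjusted p = 0.0484). It also passed with arrays scaled to equal quantiles (0.77, adjusted p = 0.0422) or medians (0.87, adjusted p = 0.0202). A pseudocount of 64 (adjusted p = 0.039) and the brighter 60% of probe sets (adjusted p = 0.0294) gave passes too. The interaction of CML38 was 1.74 ± 0.37 (adjusted p = 0.0125). CML23 rose in siz1-3 by 1.58 ± 0.27 (adjusted p = 0.000331) and stood at -0.03 in Col-0 (adjusted p = 0.948). Its interaction of 1.61 (adjusted p = 0.0219) was lost without siz1-3 dehydration replicate 2 (adjusted p = 0.0585) or 3 (adjusted p = 0.058), or with a pseudocount of 1 (adjusted p = 0.0614).

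CML37, a further calcium sensor gene of this group, differed between the genotypes in both conditions. It gave 693 ± 38.3 in dehydrated siz1-3 and 265 ± 28.0 in control siz1-3, and 45.2 ± 7.2 in dehydrated Col-0 and 39.0 ± 21.4 in control Col-0. It was higher in siz1-3 by 3.54 ± 0.24 after dehydration (adjusted p = 5.37e-07) and by 2.44 ± 0.24 under control conditions (adjusted p = 1.58e-05). Unlike ORA47 it was low in unstressed wild type. Its interaction of 1.10 did not pass (adjusted p = 0.0674), and it passed without Col-0 control replicate 2 (1.46, adjusted p = 0.00155). It also passed with equal medians (1.23, adjusted p = 0.0485) and a pseudocount of 64 (adjusted p = 0.00169). A floor of 32 (adjusted p = 0.0217) and the brighter 60% of probe sets (adjusted p = 0.0246) gave passes too.

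The defence regulator WRKY22, like ORA47, was highest in Col-0 control. It gave 50.5, 49.9 and 34.6 in dehydrated siz1-3 and 55.6, 71.5 and 54.1 in control siz1-3, and 50.2, 29.0 and 69.6 in dehydrated Col-0 and 194, 151 and 174 in control Col-0. Its siz1-3 change of -0.33 did not pass (adjusted p = 0.233), while its Col-0 change was -1.57 ± 0.21 (adjusted p = 6.37e-05). Under control conditions it was lower in siz1-3 than in Col-0 (log2 difference -1.31, adjusted p = 0.000785). Its interaction of 1.24 (adjusted p = 0.0237) was lost without Col-0 control replicate 1, siz1-3 control replicate 1 or 3, or siz1-3 dehydration replicate 1 or 2, with adjusted p between 0.0531 and 0.0611, and with a pseudocount of 1 (0.0747) or a floor of 32 (0.0598). WRKY53, a regulator of senescence and defence, was higher in siz1-3 in both conditions, by 2.74 after dehydration (adjusted p = 5.83e-07) and by 1.79 under control conditions (adjusted p = 2.72e-05). On dehydration it fell in both genotypes, with log2 fold changes of -1.10 in siz1-3 (adjusted p = 0.00037) and -2.05 in Col-0 (adjusted p = 2.45e-06). Its interaction of 0.95 (adjusted p = 0.0462) was lost without any 1 array other than Col-0 control replicate 2 and Col-0 dehydration replicate 3, with adjusted p between 0.0641 and 0.103. It was also lost with equal quantiles (0.73, adjusted p = 0.132) and with a pseudocount of 1 (adjusted p = 0.0726) or 64 (adjusted p = 0.0573). A floor of 32 (adjusted p = 0.0587) and replicate number as a block (adjusted p = 0.0576) lost it too.

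The genes whose pattern over the 12 arrays was most like that of a member were ranked by Pearson's r among 3772 probe sets of 1 gene whose highest and lowest group means differed by at least 1 on the log2 scale. They were picked for likeness, so r and the levels are descriptions. For ORA47 the 3 nearest were RALFL22, which encodes a RALF-like signalling peptide (r = 0.954), AT4G28703 (0.941) and AT3G46370 (0.940). RALFL22 averaged 332.5 in dehydrated siz1-3 and 281 in control siz1-3, and 335 in dehydrated Col-0 and 659.5 in control Col-0, so it shared the high wild-type control level with a smaller contrast. AT4G28703 averaged 139.7 and 87.8 in siz1-3, and 102.5 and 206 in Col-0, dehydrated before control in each. AT3G46370 was dim on all arrays, at 26.8 to 32.8 in control Col-0 (mean 29.8) and at most 1.35 as a mean in the other groups.

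For AT4G27652 the nearest were AT1G19210, described above (r = 0.936), AT4G29780 (0.904) and AT1G18810 (0.903). AT4G29780 averaged 288 in dehydrated siz1-3 and 259 in control siz1-3, and 171 in dehydrated Col-0 and 724 in control Col-0. For AT4G27654 they were AT3G46370 (0.960), the expansin-like gene EXLA1 (0.946) and AT1G06980 (0.941). EXLA1 averaged 65.1 and 72.4 in dehydrated and control siz1-3, and 104 and 396 in dehydrated and control Col-0, highest in unstressed wild type.

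For STZ the nearest were AT2G03410 (r = 0.867), CML23 (0.850) and AT5G66070 (0.849). Their group means, like that of STZ, were highest in dehydrated siz1-3. AT5G66070 averaged 1240.2 in dehydrated siz1-3 and 529.7 in control siz1-3, and 521 in dehydrated Col-0 and 503.5 in control Col-0. With the mean of the 4 standardised members, the 5 most like were AT1G19210 (0.937), AT2G27080 (0.923), AT4G28703 (0.902), AT1G74450 (0.876) and AT1G18810 (0.867).

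Genes beside ORA47 on chromosome 1, of which 3 of 6 were measured, showed other patterns. AT1G74910 fell in both genotypes, at -1.55 in siz1-3 (adjusted p = 5.1e-07) and -1.60 in Col-0 (adjusted p = 4.86e-07), with an interaction of 0.05 (adjusted p = 0.909). ALDH10A8, an aldehyde dehydrogenase gene, rose in siz1-3 by 0.49 (adjusted p = 0.014), a call lost without siz1-3 dehydration replicate 1 (adjusted p = 0.0511) or siz1-3 control replicate 2 (adjusted p = 0.0618). In Col-0 it rose by 1.06 (adjusted p = 7.63e-05). AT1G74940 fell in both genotypes, with log2 fold changes of -3.03 in siz1-3 (adjusted p = 7.46e-09) and -2.20 in Col-0 (adjusted p = 1.43e-07). Its interaction of -0.83 (adjusted p = 0.0289) was lost without Col-0 control replicate 2 or 3, siz1-3 control replicate 1 or 2, or any siz1-3 dehydration array, with adjusted p between 0.052 and 0.0704, and with equal quantiles (0.0646) or medians (0.0564). Of the 6 genes around STZ only AT1G27700 was measured, and its siz1-3 change of -0.32 (adjusted p = 0.0481) turned to 0.02 with arrays scaled to equal medians.

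GI, the 1 measured gene of 10 clock genes listed, has a transcript that cycles over the day. It gave 144.5, 151 and 186 in dehydrated siz1-3 and 347, 516 and 360.3 in control siz1-3, and 304, 256 and 292 in dehydrated Col-0 and 724, 791 and 607 in control Col-0. On dehydration it fell in both, with log2 fold changes of -1.25 in siz1-3 (adjusted p = 4.21e-05) and -1.26 in Col-0 (adjusted p = 5.17e-05). It was lower in siz1-3 than in Col-0, with differences of -0.77 after dehydration (adjusted p = 0.00336) and -0.78 under control conditions (adjusted p = 0.00515). Its interaction was 0.01 (adjusted p = 0.983). Whether sampling time has a part in the ORA47 pattern was not tested.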

How the data were processed

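The deposited table holds 1 intensity (signal) per ATH1 probe set and array, linear by its own values, with a mean of 249.9 on each array after trimming 2% at each end. The probe summary method was not given in the sources used. All 12 arrays were used, grouped by the genotype and treatment that their titles state. The 64 control probe sets were left out which leaves 22746. Gene names are those of the series' platform annotation, updated through a RefSeq gene table of TAIR10.1: 13513 probe sets pair with 1 gene (13436 matched), 503 with several and 8730 are not listed. Genes without a symbol there go by locus code. Gene order follows that TAIR10.1 table, and no coordinates are given.

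The log2 signal, after adding 16, was fitted with 1 mean per group over the 12 arrays (limma 3.58.1 in R 4.3.3, lmFit and eBayes; residual df 8, prior df 4.141). Log2 fold changes so obtained are too small for dim probe sets. A gene passed, or was called, where its p, adjusted by Benjamini and Hochberg over the 22746 probe sets, was under 0.05. All adjusted p-values are limma's. SDs are of signals unless given on the log2 scale. The number of arrays limits the precision. No scaling was added, since the log2 array medians spanned 0.355, less than a set limit of 0.5. The fit was tested on simulated data.

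The 4 genes and all lists (9 lists, 159 genes, 34 measured) were chosen with earlier results of these data known. Genes named are the members, every measured gene of a list with at most 6 measured, otherwise the 6 with the largest interaction, the 3 most like each member and the 5 most like their mean, and measured genes among the 3 on either side of a member. For a gene with several probe sets, the brightest was used. Alternatives were quantile scaling, subtraction of array medians, pseudocounts of 1 and 64, a floor of 32, the brighter 60% of probe sets, a fit of only the groups compared, replicate number as a block, and each array left out in turn. Same-numbered arrays of different groups did not deviate together (correlations of deviations -0.0443 to 0.0529), so the numbers were not treated as pairs.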

Additional observations from a re-analysis of the deposited data

Results flagged for a closer look

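Several responses to dehydration differed between siz1-3 and Col-0. The interaction values (siz1-3 change minus Col-0 change, log2 scale) are collected here. ORA47 at 4.33 and AT4G27652 at 2.95 stand out because every dehydrated siz1-3 array lay above every siz1-3 control array and every dehydrated Col-0 array lay below every Col-0 control array. That difference was not tested, since the genes were chosen from these same values.

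In the other genes the interaction itself passed limma's test (adjusted p under 0.05). The change on dehydration, not the level, was higher in siz1-3 than in Col-0 for 9 of them. These were AT1G19210 at 2.42, AT4G27657 at 2.21, PUB22 at 1.96, CML38 at 1.74, AT3G53600 at 1.68, CML23 at 1.61, OPCL1 at 1.47, WRKY22 at 1.24 and WRKY53 at 0.95. For AT1G74940, beside ORA47, the change was lower in siz1-3 than in Col-0, at -0.83. The interactions of AT3G53600, CML23, WRKY22, WRKY53 and AT1G74940 lost their call under at least 1 alternative, as given with each gene above.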

How the results depend on the processing

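Of 396 recomputed log2 fold changes of the 4 genes, 35 moved by 1 SD or more, among them the sign changes of STZ given above. Of 210 gene and comparison pairs with a test, 62 had a call that changed under some alternative. AT1G27700 turned to 0.02 in siz1-3 with array medians subtracted. Scaling moved the median of all probe sets: subtracting array medians raised it by 0.34 in siz1-3, 0.22 in Col-0 and 0.13 in the interaction, and quantile scaling by 0.13 in siz1-3. With medians subtracted, 6699 probe sets were called higher and 4107 lower in siz1-3 (3482 and 7225 without), and 4993 higher and 3506 lower in Col-0 (3081 and 5348 without). The lower interaction calls were then 637 (1129 without), and with a pseudocount of 1 the higher ones were 564 (874 with 16). With 1 array left out, interaction calls numbered 1270 to 1885 (2003 with all), the fewest without siz1-3 dehydration replicate 3, and the lower ones 670 to 1001, among them 751 without Col-0 control replicate 1. Of the 25 list genes, 3 fell in siz1-3 under quantile scaling, subtracted medians or the brighter 60% of probe sets (5 in the fit used above). In Col-0, 7 fell with the brighter 60% (11 in the fit used above). Other alternatives changed these counts too. AT4G31060 lost its siz1-3 call with a floor of 32 (adjusted p = 0.0709), and AT1G44830 its Col-0 call with a pseudocount of 1 (adjusted p = 0.0599). Lower in siz1-3 after dehydration were 0 with a pseudocount of 1 and 1 to 2 with an array left out. The list genes with a higher interaction numbered 4 with a pseudocount of 1 and 5 to 11 with an array left out. With the replicate block, 1783 interactions were called, 10586 probe sets in siz1-3 and 8304 in Col-0. The block moved no count by over 1.5 times. Signals near 16, as of AT4G27654 outside Col-0 control, limit what can be read.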

Other observations

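4 further genes of the touch, wound and calcium list lay outside the rule for named genes and are given here after their values were seen. The ubiquitin ligase gene PUB24, a relative of PUB22, gave 425.5, 409 and 490.5 in dehydrated siz1-3 and 407, 476 and 383 in control siz1-3, and 89.5, 106 and 120.2 in dehydrated Col-0 and 146, 95.2 and 162 in control Col-0. It was higher in siz1-3 by 1.92 after dehydration (limma, adjusted p = 5.28e-06) and by 1.56 under control conditions (adjusted p = 4.25e-05). PUB23 was likewise higher in siz1-3, by 1.87 after dehydration (adjusted p = 2.39e-05) and by 1.13 under control conditions (adjusted p = 0.00188). WRKY6 was higher in siz1-3 by 1.76 after dehydration (adjusted p = 1.36e-06) and by 1.88 under control conditions (adjusted p = 1.1e-06).

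So PUB22, which was lower in unstressed siz1-3 than in unstressed Col-0 (-0.69, adjusted p = 0.00551), and its relatives PUB23 and PUB24 differed in the direction of the genotype difference under control conditions, and after dehydration all 3 were higher in siz1-3. CML39 rose in both genotypes, by 3.37 in siz1-3 (adjusted p = 9.13e-06) and by 3.06 in Col-0 (adjusted p = 2.78e-05), and its interaction of 0.30 did not pass (adjusted p = 0.795).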
